A study of Drosophila melanogaster with 2 samples.

Results

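The regions described are intronic binding regions of Drosophila melanogaster embryos whose strongest point, the summit, lay more than 1 kb and at most 5 kb from the nearest transcription start site (TSS) of a protein-coding gene. Each summit also had to lie inside a protein-coding gene and outside every coding exon and untranslated region. These limits left 847 of 5206 reproducible regions, or 16.3% (95% Wilson interval 15.3 to 17.3%). Signal entered through the authors' list, whose 5744 peaks are the strongest of the pooled list, and through the summit of the strongest peak, which placed each merged region. Beyond that, the limits on position did not use it.

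The assay was chromatin immunoprecipitation followed by sequencing (ChIP-seq) of E(spl)mβ-HLH, a repressor of the Hairy/E(spl) family, in a line that stably carries the protein with GFP at its C terminus. Whole embryos of both sexes, aged 0 to 24 hours, gave 2 biological replicates, numbered 1 and 3, of 1 group, and no other condition was compared. The labels disagree on what was sequenced: a free-text line speaks of an input control, but the antibody entry and the type of assay point to an immunoprecipitation of the factor. Every value below carries that uncertainty. The peak lists hold no read counts, so the depth of each replicate is unknown, and a list from whole embryos averages over all their cell types.

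Hairy/E(spl) proteins, of which the E(spl) members are switched on by Notch signalling, are basic helix-loop-helix repressors that recruit the corepressor Groucho. They bind E-box-like words, among them CACGTG and CACGCG, at promoters and at enhancers. In the fly, enhancers often lie in the first introns of developmental genes, where they can act on the gene's own promoter or on a neighbour's.

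The following 30-base stretches are shown because they carry such a word within 100 bp of the summit of a strong intronic region. They are plus-strand sequence of the RefSeq copy of dm6, read 5′ to 3′, and capitals mark the word, so that CACGCG on the minus strand appears as CGCGTG. The first 4 hold CACGTG and the last 4 hold CACGCG.
Glut4EF, 3R:9932576-9932605: ggcactcacacaCACGTGtaatgataacaa
tara, 3R:16229108-16229137: gtaggccggcagCACGTGctaagcacattt
puc, 3R:8108995-8109024: tttttgctttggCACGTGctgtgagataaa
Tlk, X:3777435-3777464: gttttgtccgtgCACGTGctagacgatgta
Spn, 3L:2551541-2551570: tttcgccagctgCGCGTGggccaccgaaaa
Atg17, 3R:5672814-5672843: gaagagtgaatgCGCGTGtgccgagtgtgg
IP3K2, X:13322451-13322480: tgttaattgaagCACGCGccaaagccccca
Dyro, 3L:11293585-11293614: cgacagcagcagCGCGTGtgctgtgcctgg

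In puc, the gene of a JNK phosphatase, the word started 0 bp from the summit, and in Dyro it started 3 bp before it. In tara the word began 28 bp before the summit, and in Tlk, the gene of the Tousled-like kinase, 53 bp after it. It began 39 bp before the summit in IP3K2, 30 bp before it in Glut4EF and 35 bp after it in Atg17. In Spn it began 84 bp after the summit, near the edge of the window. The signal of a region is the authors' value for its strongest peak in the list pooled over both replicates, on the peak caller's own scale. On that scale the Spn region had 1035, the Atg17 region 985, the IP3K2 region 878, the Glut4EF region 811, the Dyro region 674, the tara region 639, the puc region 626 and the Tlk region 473. All 8 lay above the median of the intronic regions, which was 288.3.

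Across the 847 regions the pooled signal ran from 183.7 to 5177, with quartiles of 223.0 and 404.8. Promoter regions, with a summit within 1 kb of a TSS, had a median of 310.3, intronic regions beyond 5 kb had 261.9 and intergenic regions 293.8, against 299.1 over all regions. The intronic class held 52 of the 500 strongest regions (10.4%) and 11 of the 100 strongest. Its median width was 374 bp, against 395 bp at promoters. In 697 regions (82.3%, 79.6 to 84.7%) the whole span stayed inside the class, while 104 (12.3%) reached to within 1 kb of a TSS. Exon bases over 1 kb from a TSS were covered by 34 regions (4.01%), and exon bases nearer to a TSS were not counted.

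The limits cut through a continuous set of values. The nearest summits inside the 1 kb limit were at 1001 bp in mAChR-A (signal 326.2), at 1005 bp in CG1648 (340.1) and at 1005 bp in sbb (292.8). Just outside it lay summits at 992 bp in sug (219.0), at 994 bp in mld (512.3) and at 996 bp in drongo (348.2). Inside the 5 kb limit were summits at 4991 bp in Eip75B (331.0), at 4993 bp in tara (885.0) and at 4997 bp in Ac13E (362.2). Beyond it came Octbeta3R at 5052 bp (204.9), Eip74EF at 5061 bp (297.8) and bun at 5067 bp (666.3).

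The replicates were compared through their own lists of 30000 peaks each, which the authors called separately. In 639 of the intronic regions, or 75.4% (72.4 to 78.2%), each replicate listed an overlapping peak within its own 5744 strongest. Over all regions the share was 77.9%. The number 5744 is the length of the authors' reproducible list, which was thresholded on the irreproducible discovery rate (IDR). In 115 regions replicate 1 had such a peak and replicate 3 a weaker one, in 75 the order was turned, and in 11 both were weaker. The share followed the pooled signal. It was 100% of the 212 strongest regions, 98.1% of the next 212, 81.1% of the third 212 and 22.3% (17.2 to 28.4%) of the 211 weakest. Since the pooled list contains the reads of both replicates, this order is a description and not independent support.

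Signal in the replicate lists ranked the intronic regions alike, with a Spearman rho of 0.720 over the 840 regions listed in both (0.742 over all regions with both). The regions are not independent replicates, and both lists were called against a control, so no p-value belongs to the coefficient. The summits of the replicates were a median of 28.5 bp apart. For 4 regions the list of replicate 1 held no overlapping peak. They lay in Pdp1 (pooled signal 392.7, replicate 3 signal 150.6), Lmpt (289.1 and 127.9), PAN3 (223.7 and 94.6) and ush (213.5 and 95.8). For 3 regions replicate 3 held none. They lay in sqz (215.9, replicate 1 signal 102.5), InR (210.7 and 160.2) and Orp8 (205.0 and 179.4). The Pdp1 region stood at rank 223 of the 847, and the other 6 were in the weaker part of the class or close to its median.

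**Figure D1:**
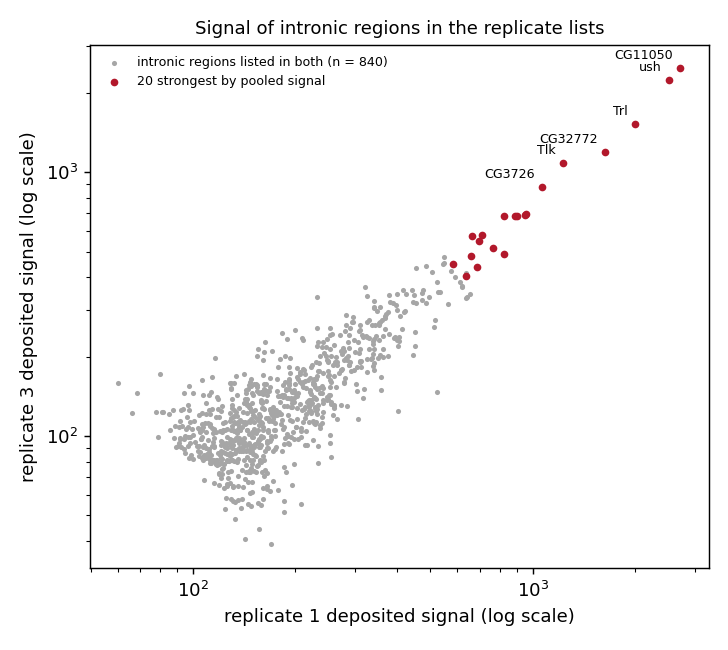
Signal of the 840 intronic regions listed in both replicates, replicate 1 on the horizontal and replicate 3 on the vertical axis, both logarithmic and in the authors' units. Red points are the 20 strongest by pooled signal, of which 6 are named. The strong regions lie on a narrow diagonal and the weak ones in a broad cloud.

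The strongest intronic region lay in CG11050 (2L:6612310-6613064), with a pooled signal of 5177 and rank 2 of all 5206 regions. Its signal was 2724 in replicate 1 (rank 2) and 2474 in replicate 3 (rank 1). The summit was 1021 bp downstream of the nearest TSS, in an intron of 140 bp. The region was 755 bp wide, so it ran beyond that intron, and it reached to within 1 kb of the TSS. The second lay in ush, which encodes a Friend-of-GATA cofactor, and had 4740 pooled, 2526 in replicate 1 and 2231 in replicate 3. This region was 3029 bp wide, and its summit was closest to the TSS of another gene, cbt, a zinc-finger factor, at 1370 bp. The span of the region also covered that TSS of cbt. The ush region was the only one of the 20 strongest whose nearest TSS was not the host's. The third lay in Trl, which encodes the GAGA factor, with 3513 pooled, 1999 in replicate 1 and 1525 in replicate 3. Its summit was 1542 bp upstream of an alternative TSS of Trl.

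CG32772 followed with 2823 (1632 in replicate 1 and 1197 in replicate 3) and Tlk with 2285 (1231 and 1084). CG3726 had 1928 (1065 and 875.3), and Kdm2, a histone demethylase gene, had 1649 (948.3 and 690.5). The next regions lay in CG9837 (1626), in for, which encodes a cGMP-dependent protein kinase (1581), in the forkhead factor gene CHES-1-like (1575) and in norpA, the phospholipase C gene of vision (1503). They were followed by trx, which encodes a histone methyltransferase (1306), by shn, a zinc-finger factor of the Dpp pathway (1292), by NFAT (1285) and by the dystrophin gene Dys (1252). The last of the 20 were in CG12769 (1233), CG32425 (1133), Pits (1110), Spn, the spinophilin gene (1035), and the mitochondrial carrier gene SCaMC (1029). None of the 20 ranked below 281 in replicate 1 or below 284 in replicate 3. Of these 20 regions, 16 lay in a first intron, 18 had a host with a promoter region and 7 were merged from several peaks. CACGTG or CACGCG stood within 100 bp of the summit in 1 of the 20, the Spn region shown above, and GAGAGAG in 3.

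Bases that meet the same limits as the summits are called eligible, and they made up 18.5 Mb of the 133.9 Mb of the 6 arms (13.8%). They held 45.9 regions per Mb (exact 95% Poisson interval 42.8 to 49.1). Promoter sequence held 124.3 per Mb (120.1 to 128.5), introns beyond 5 kb 15.5 (14.1 to 16.9), intergenic sequence 11.6 (10.5 to 12.7), and all sequence 38.9. The intervals cover counting error only. In the whole pooled list of 30000 peaks, 18.1% (17.1 to 19.3%) of the 4672 merged regions of this class overlapped a reproducible one. At promoters it was 41.4%, in introns beyond 5 kb 9.59% and between genes 10.5%. Since the reproducible peaks are the strongest of the pooled list, these shares describe pooled signal and not reproducibility by itself. The density was between 40.7 and 52.2 per Mb on 2L, 2R, 3L, 3R and X. On chromosome 4 a single region, in the zinc-finger homeobox gene zfh2, stood in 0.236 Mb, or 4.23 per Mb (0.107 to 23.6).

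First introns, read over any transcript, were richer than later ones. The summit lay in the first intron of at least 1 transcript in 633 of the 847 regions, or 74.7% (71.7 to 77.5%), whereas 56.2% of eligible bases were of that kind. This gave 61.0 regions per Mb of first intron (56.3 to 65.9) and 26.5 per Mb of later introns (23.0 to 30.3), and the intervals did not overlap. The share depends on which transcript is read. In the first intron of the transcript with the longest coding sequence lay 409 summits (48.3%). In the first intron of every transcript whose intron held them lay 387 (45.7%). No share of eligible bases was computed for these stricter definitions, and the 56.2% does not apply to them. In first introns the density fell with distance from the TSS, from 82.3 per Mb (70.8 to 95.1) between 1 and 1.5 kb to 39.8 per Mb (26.8 to 56.8) between 4.5 and 5 kb. In later introns it was 27.5 per Mb (18.9 to 38.6) in the nearest bin and 27.0 (16.9 to 40.9) in the farthest, with a range of 16.3 to 34.8 over the 8 bins. Signal did not follow the distance in the same way, since the median was 313.7 in the nearest bin, 292.7 in the farthest and between 268.0 and 294.1 in those between.

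**Figure D2:**
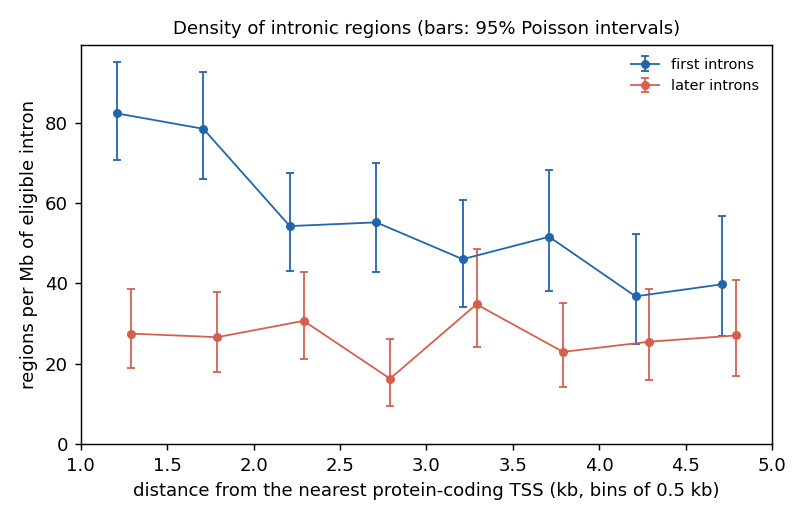
Regions per Mb of eligible intron against distance from the nearest protein-coding TSS in bins of 0.5 kb, for first introns (blue) and later introns (red), with exact 95% Poisson intervals. The blue points fall from 82.3 to 39.8, and the red ones stay between 16.3 and 34.8.

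The nearest TSS belonged to a host gene in 735 regions (86.8%, 84.3 to 88.9%). In 551 regions (65.1%) the summit was downstream of that TSS, as for an intron behind the gene's own promoter. In 184 regions (21.7%, 19.1 to 24.6%) it was upstream, which places it in an intron before an alternative promoter of the same gene. Counting every nearest TSS, 589 summits (69.5%, 66.4 to 72.5%) were downstream, close to the 68.5% of eligible bases that were. The introns that held the summits had a median of 9881 bp, quartiles of 4472 and 19502 bp and a maximum of 121519 bp. Where several introns held a summit the longest was taken, and no length over eligible bases was set beside these values. Introns that held regions beyond 5 kb had a median of 21661 bp.

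Annotated transposable elements covered 4.57% of eligible bases and held 0 of the 847 summits (upper Wilson bound 0.451%). How reads from repeated sequence were treated is not given in the sources used here, and its part in this count was not tested. A TSS of a non-coding gene lay within 1 kb of 44 summits (5.19%, 3.89 to 6.90%), against 3.36% of eligible bases. Genes annotated as ncRNA were near 33 of them, snoRNA genes near 9 and tRNA genes near 3, and 2 were near microRNA genes, mir-4978 inside mam (signal 660.7) and mir-4962 inside Tlk (472.6). Both regions of egr, which encodes a TNF ligand, were beside snoRNA genes (426.1 and 338.5), and the region of hts stood beside 3 tRNA genes and 1 snoRNA gene (218.1).

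The 847 regions lay in 618 host genes, or 7.08% of the 8727 genes with eligible sequence, and 47 regions lay inside more than 1 gene. The host share rose with the length of eligible intron. It was 0.422% of the 5690 genes with up to 1 kb, 8.71% of those with 1 to 2 kb, 14.2% with 2 to 4 kb, 22.9% with 4 to 8 kb and 34.4% (30.9 to 38.1%) of the 668 genes with more than 8 kb. A promoter region stood at 467 of the 618 hosts, or 75.6% (72.0 to 78.8%). Over all genes with eligible sequence the share was 32.9%, and over those that host no intronic region 29.7% (28.7 to 30.7%).

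The difference was also present among genes with a similar length of eligible intron. A gene counts as having a promoter region if any of its TSSs has one, and the number of TSSs was not matched. With 1 to 2 kb, 36 of 52 hosts (69.2%, 55.7 to 80.1%) and 195 of 545 other genes (35.8%, 31.9 to 39.9%) had a promoter region. With more than 8 kb the counts were 181 of 230 hosts (78.7%, 73.0 to 83.5%) and 165 of 438 other genes (37.7%, 33.3 to 42.3%). The share of regions whose host had a promoter region varied little with signal, from 83.5% of the strongest 212 to 82.5% of the weakest 211, with a low of 78.3% in the third group. Another region of any class had its summit within 2 kb of 388 of the 847 intronic summits (45.8%, 42.5 to 49.2%). The share was 34.1% (32.5 to 35.7%) at promoters, 27.4% (23.6 to 31.6%) in introns beyond 5 kb and 35.8% (31.4 to 40.4%) between genes. The limits of the classes enter these shares. A summit over 5 kb from every protein-coding TSS cannot have a promoter region within 2 kb, so the shares do not compare clustering alone. The median distance to the next region was 2187 bp.

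**Figure D3:**
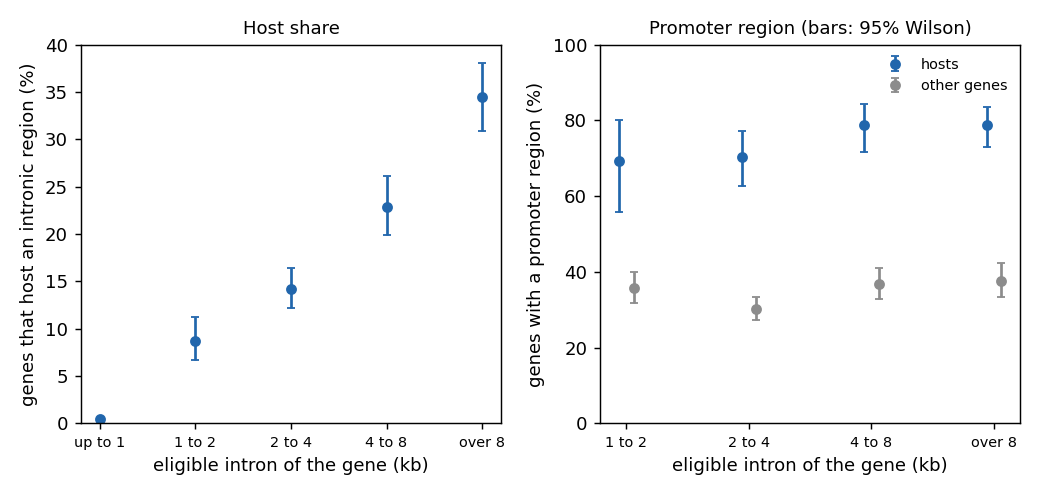
Left, percent of genes that host an intronic region, by kb of eligible intron in the gene; right, percent of hosts (blue) and of other genes (grey) that carry a promoter region, for genes with over 1 kb of eligible intron. Bars are 95% Wilson intervals. The host share rises from 0.422 to 34.4%, and hosts lie above other genes in all 4 length classes on the right.

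Hosts with 2 or more intronic regions numbered 177, and 62 had at least 3. Of the 62, 61 also carried a promoter region, and HDAC4 was the exception. The richest host was shn, whose protein acts in Dpp signalling as a partner of Smads, with 10 regions in 30.3 kb of eligible intron. Along the gene their pooled signals were 496.4, 255.1, 187.2, 921.0, 1292, 366.4, 321.8, 308.4, 341.1 and 536.6. The 2 highest lay 25.5 and 26.7 kb from the 5′ end of the gene, on the downstream side of the TSS at 24.1 kb, and had 504.7 and 710.8 in replicate 1 and 417.1 and 579.6 in replicate 3. The strongest region of shn, with 2597, was a promoter region at 14.5 kb.

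CHES-1-like had 8 intronic regions in 12.6 kb of eligible intron, with signals between 251.1 and 1575, and 3 promoter regions with 586.0, 817.7 and 1216. Its strongest intronic region exceeded all 3 promoter regions, with 887.8 in replicate 1 and 684.9 in replicate 3. SNF4Agamma, which encodes a subunit of AMP-activated kinase, had 6 regions between 202.4 and 359.9. Eip75B, an ecdysone-induced nuclear receptor gene, had 5 between 189.0 and 331.0, and Pdp1, a bZIP factor gene of the circadian clock, had 5 between 233.2 and 822.6. Tlk had 5 between 355.1 and 2285, and the strongest stood 22.2 kb from the 5′ end of the gene and 2313 bp behind a TSS.

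The hosts with 4 regions were mam, ush, Mef2, tna, siz, CG1677, CG9328, tou, atos, CG5151, CG3764, REPTOR, tara, Pde11, Atg1 and sbb. Within mam, whose product is the coactivator of the Notch complex, the signals were 379.9, 660.7, 342.5 and 843.3 along the chromosome. Within Mef2, a muscle transcription factor gene, they were 265.3, 613.5, 189.0 and 649.8. In ush they were 4740, 423.9, 735.2 and 213.5, so that 1 region stood far above the rest. Those of siz stayed between 195.5 and 254.8.

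The hosts with 3 regions were aop, for, kay, crp, raw, neb, bowl, shot, Mnt, CG6424, CG14434, NFAT, RhoGAP19D, Hipk, PAN3, hzg, CG9674, Kdm2, CG10365, Gclc, HDAC4, CG32264, CG42258, CG5004, Orp8, Lmpt, SLO2, kdn, Sik3, Sarm, Evi5, psq, mbl, ttv, Kr-h1, Svil, InR, IP3K2, CG46315 and CG46385, with CG6424 and CG46315 sharing their 3 regions. Kdm2 had its 3 regions in 3.91 kb of eligible intron, with 220.1, 797.3 and 1649. RhoGAP19D had the narrowest range, from 191.7 to 198.2.

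**Figure D4:**
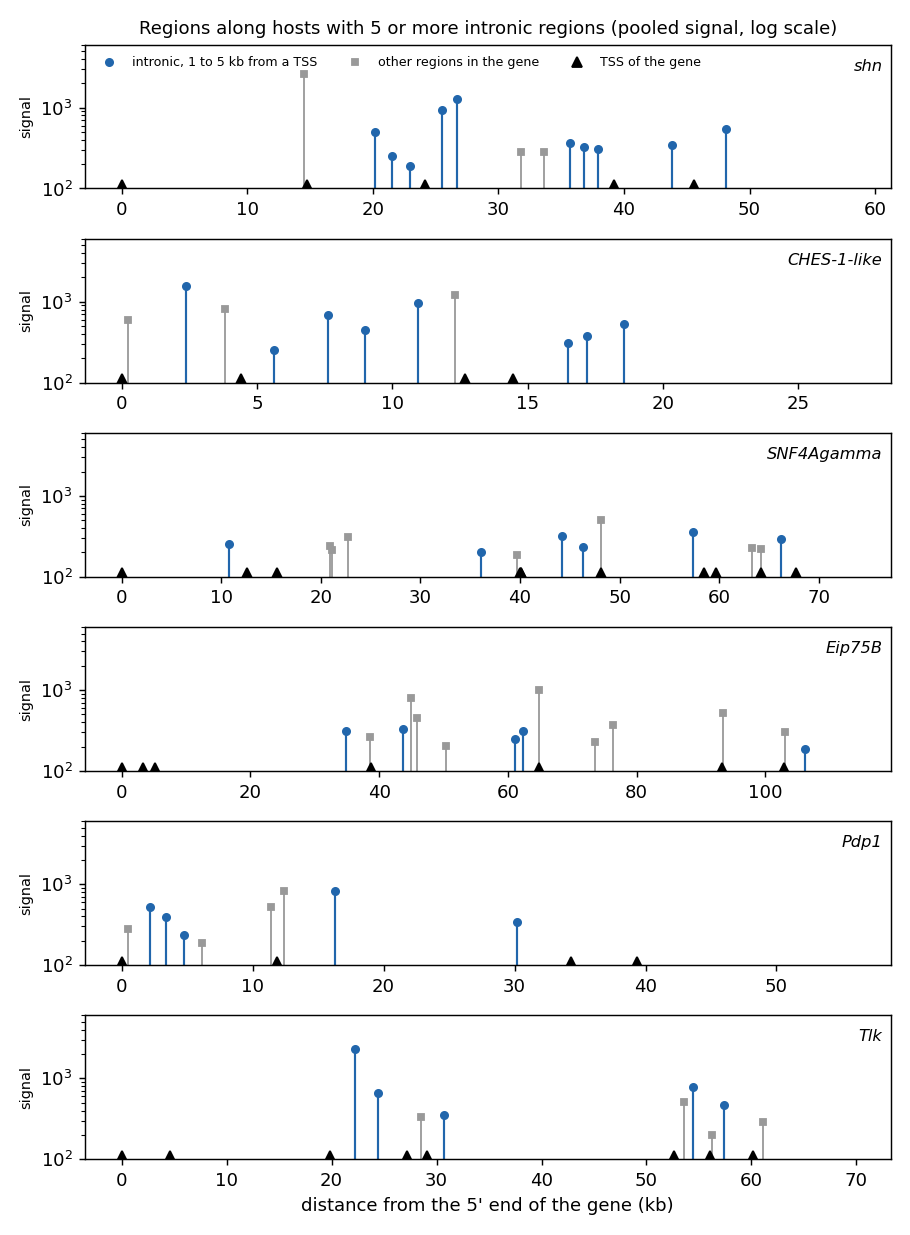
Pooled signal (logarithmic axis) against distance from the 5′ end of the gene in kb for the 6 hosts with 5 or more intronic regions. Blue points are intronic regions 1 to 5 kb from a TSS, grey squares other regions inside the gene and triangles the TSSs of the gene. The blue points of shn lie between 20.2 and 48.1 kb, around 3 internal TSSs. The limits place every blue point 1 to 5 kb from a protein-coding TSS, so their standing near TSSs is given by the choice of regions.

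Genes were also read by 22 lists of pathways and tissues. Density per Mb of eligible intron takes account of their different intron lengths, and it was 45.9 over all genes. The interval of a list lay above this value for 5 lists, below it for 1 and around it for 16. The lists were chosen with earlier results of these data known, and the intervals were not adjusted for the number of lists. These counts are therefore a description and not a test. The intervals treat regions of 1 gene as independent, which they are not. Read by the share of genes that were hosts, 19 of the 22 lists stood above the 7.08% of all genes with eligible sequence, but that share takes no account of intron length, with which it rose. A host is the gene that holds the summit, and the nearest TSS can be another gene's. Among hosts named below, this held for the strongest region of ush (cbt), mam (CG18371), mdy (CG13280), NetB (hog), ttv (LamC), arr (CG43192) and Cdk4 (RpLP2).

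In the Dpp and activin list, 4 of 20 genes with eligible sequence were hosts, with 14 regions and 148.7 per Mb (81.3 to 249.5). Of the 14 regions, 10 were in shn, and without shn the value was 62.6 per Mb (17.1 to 160.3), whose interval holds that of all genes. The next host of the list was Dad, an inhibitory Smad of the pathway, with 663.6 pooled, 374.7 in replicate 1 and 294.3 in replicate 3. In the JAK/STAT and JNK list, 8 of 22 genes were hosts, with 15 regions and 142.4 per Mb (79.7 to 234.8). They included raw, an antagonist of JNK signalling (659.7), puc (626.0) and the JAK/STAT inhibitor gene Socs36E (568.9). In the list of GAGA factor, insulators and chromatin, 7 of 40 genes were hosts, with 141.9 per Mb (73.3 to 247.9). Trl and trx led it, and Sin3A, a corepressor gene, had 992.5.

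Metabolism and transport had 133.5 per Mb (61.0 to 253.4), with 7 hosts of 27. The strongest were the lipase gene bmm (985.6) and mdy, which encodes an enzyme of triglyceride synthesis (415.2). Cytoskeleton and small GTPases had 15 hosts of 46 and 89.8 per Mb (56.3 to 136.0), led by the cofilin gene tsr (872.1) and the formin gene dia (496.8). The median signal of regions in these 5 lists was 331.4, 351.2, 485.9, 280.6 and 295.2 in the order given, against 288.3 over all hosts.

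The list with the interval below all genes was axon guidance and synapse, with 22.9 per Mb (9.87 to 45.0). Its host share went the other way, with 7 of 35 genes, or 20% (10.04 to 35.9%), against 7.08% of all genes. That share takes no account of intron length. Its strongest hosts were the adhesion molecule gene Fas2 (576.0) and the netrin gene NetB (337.2). Segmentation and Hox genes had a single host of 31, the homeobox gene cad (250.5), and 8.76 per Mb (0.222 to 48.8). Chemosensory receptors had 0 hosts of 28, in 0.023 Mb, which allows up to 160.3 per Mb.

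The Notch pathway list had 1 host of 18 genes with eligible sequence. This was mam, and its 4 regions gave 46.5 per Mb (12.7 to 119.0). The list of E(spl) and other bHLH genes had 6 hosts of 39 and 71.1 per Mb (35.5 to 127.2). Its strongest were crp, which encodes a bHLH leucine zipper protein (513.6), and cwo, an Orange-domain repressor gene of the circadian clock (447.7). The EGFR and FGFR list had 4 hosts of 29 (13.8%) and 43.7 per Mb (17.6 to 90.1), with the kinase gene Raf at 1005 and the ETS repressor gene aop at 499.9. The Wnt and Hedgehog list had 4 of 30 (13.3%) and 38.8 per Mb (15.6 to 80.0), with ttv at 468.9 and the coreceptor gene arr at 329.2. Insulin and Hippo growth control had 5 of 25 (20%) and 98.5 per Mb (42.5 to 194.0), with the kinase gene wts at 518.4 and InR at 272.8.

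The densities of the remaining lists ran from 31.5 to 93.8 per Mb, all with intervals that hold the 45.9 of all genes. Their host shares can be set beside the 7.08% of all genes only without regard to intron length, with which the host share rose. Among the nuclear receptor and ecdysone genes 7 of 22 (31.8%) were hosts, with 54.7 per Mb (27.3 to 97.9), Hr96 at 477.0 and Hr4 at 336.9. Neural fate and temporal factors had 6 of 29 (20.7%) and 40.6 per Mb (16.3 to 83.7), with the forkhead gene jumu at 566.7 and zfh1 at 478.0. Mesoderm and muscle genes had 9 of 33 (27.3%) and 48.8 per Mb (26.0 to 83.4), with Mef2 at 649.8 and zfh1 again next. The glial list had ttk, a BTB repressor gene, at 330.1 as its only host of 13 (7.69%), and 33.6 per Mb (4.07 to 121.5).

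The tracheal and epithelial list had 4 of 24 (16.7%) and 32.9 per Mb (10.7 to 76.9), with the polarity genes aPKC at 310.0 and sdt at 300.6. Haemocyte and fat body genes had 2 of 15 (13.3%) and 64.8 per Mb (21.05 to 151.3), and the hosts were ush and the nuclear receptor gene Hnf4 (305.3). The list of zinc-finger, KLF and Sp factors had 7 of 21 (33.3%) and 56.7 per Mb (29.3 to 99.1). Its hosts were Kr-h1 at 387.2, jim at 347.6, crol, fru, bowl, ken and sqz, so its share is not one of KLF and Sp genes alone. The list of RNA-binding proteins had 8 of 34 (23.5%) and 31.5 per Mb (16.3 to 55.0), with shep at 396.5 and mbl at 360.8. The cell cycle list had 3 of 24 (12.5%) and 93.8 per Mb (25.6 to 240.1), with Cdk4 at 517.5 and trbl at 509.0.

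**Figure D5:**
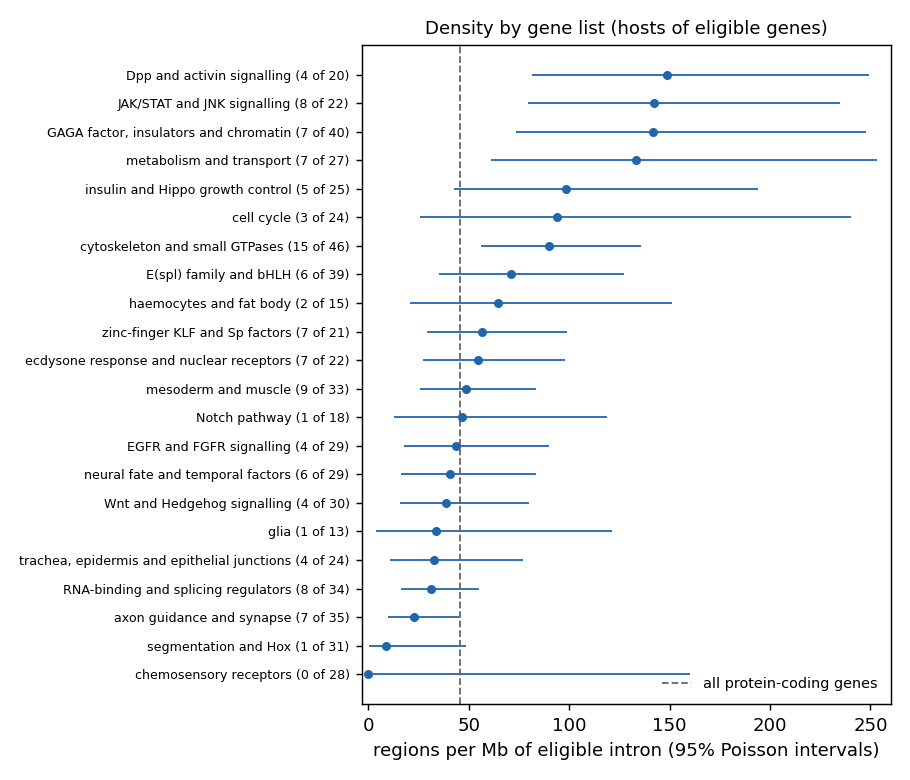
Intronic regions per Mb of eligible intron for the 22 gene lists, with exact 95% Poisson intervals; hosts and genes with eligible intron stand in parentheses, and the dashed line marks all protein-coding genes (45.9). The intervals of 5 lists lie to the right of the line, that of axon guidance and synapse to its left. The lists were chosen with earlier results of these data known.

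Words were sought on both strands within 100 bp of each summit and, for comparison, in windows of the same 201 bp centred 500 bp to either side. CACGTG was present at 39 intronic summits (4.60%, 3.39 to 6.23%) and in 1.89% (1.34 to 2.65%) of the 1694 side windows. CACGCG was present at 59 (6.97%, 5.44 to 8.88%) and in 4.13% (3.28 to 5.19%) of side windows. Either word stood at 94 summits, or 11.1% (9.16 to 13.4%), against 5.79% (4.77 to 7.0%) beside them. Over all regions the summit share was 11.7%. The words were most frequent within 50 bp of the summit, with 7.32% (5.75 to 9.27%) of regions. Farther out the values did not fall steadily. They were 5.08% from 50 to 100 bp, 4.13% from 100 to 150 bp and 5.08% (3.79 to 6.77%) from 250 to 300 bp. The lowest was 2.83%, from 450 to 500 bp. The share did not order by signal, since it was 11.3% of the strongest 212 regions and 11.4% of the weakest 211.

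CACTAG, a form of the N-box, was present at 3.07% (2.10 to 4.46%) of intronic summits and in 3.36% (2.61 to 4.33%) of side windows. Over all regions it was at 5.4% of summits, and at promoters at 6.35% (5.58 to 7.22%) against 3.93% (3.49 to 4.42%) beside them. GAGAGAG, the word of the GAGA factor, was at 5.43% (4.10 to 7.17%) of intronic summits and in 4.96% (4.02 to 6.10%) of side windows, with 6.09% over all regions. Within 50 bp of the summit it was in 2.01% (1.26 to 3.19%) of regions, and from 100 to 150 bp in 5.08% (3.79 to 6.77%). In Tlk and trx the word lay 88 and 89 bp from the summit, near the edge of the window.

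The limits keep protein-coding TSSs over 1 kb away from these summits, although 44 lay within 1 kb of a non-coding TSS. Words of fly core promoters were rare there. TATCGATA, the centre of the DRE, was at 2 of 847 intronic summits (0.236%, 0.0648 to 0.857%), against 6.02% (5.27 to 6.88%) of promoter summits and 3.98% of all. GGTCACACT was at 0 of 847 (up to 0.451%), against 3.18% (2.63 to 3.82%) of promoter summits and 2.07% of all. GATAAG, the word of GATA factors, was at 17.4% (14.95 to 20.1%) of intronic summits and in 12.6% (11.1 to 14.3%) of side windows, with 13.6% over all regions.

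Of the 20 words sought, GATAAG and both E-box words had a summit interval above that of the side windows, none had one below, and 17 overlapped. The 17 include, with the share at intronic summits and then over all regions, CACACACA (8.15 and 6.74%), CACGAG (3.78 and 4.53%), CACAAG (8.15 and 8.74%), CACCAG (4.72 and 5.99%), CAGCTG (9.92 and 12.3%) and CATATG (8.62 and 6.63%). They also include CAGGTG (6.14 and 6.28%), CAAATG (19.95 and 16.8%), CATCTG (6.14 and 6.36%), CAGGTAG (1.06 and 0.749%), TGANTCA (7.08 and 4.63%), TTCNNNGAA (5.19 and 5.17%) and the Su(H) site (1.77 and 2.02%). The summits had a median GC content of 37.8% and the side windows 40.0%. A match is a description of the letters and not of a bound site.

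All hexamers present at 5% or more of intronic summits were then ranked by the ratio of their share at summits to that in side windows. The highest, chosen after their values were seen, were CTGTAC, at 9.33% of summits and in 4.31% of side windows, and ACAGTG, at 17.4 and 8.68%. These letters overlap in the word GTACAGTG, read as CACTGTAC on the other strand. It was present at 31 intronic summits (3.66%, 2.59 to 5.15%) and in 0.885% (0.537 to 1.46%) of side windows. At promoters the shares were 1.19% (0.873 to 1.61%) and 0.638% (0.474 to 0.858%), in introns beyond 5 kb 1.93% (1.02 to 3.62%) and 0.214%, between genes 2.51% (1.40 to 4.43%) and 0.456%, and over all regions 1.75%. From 50 to 100 bp of the summit it was in 2.72% (1.82 to 4.04%) of intronic regions, and within 50 bp in 1.30% (0.727 to 2.31%). The stretches below, with the word in capitals and otherwise printed like those above, come from 6 of the strongest intronic regions that hold it, on X and 3L.
CHES-1-like, X:7706889-7706918: ttatcgttgtgGTACAGTGgaaactgcttt
norpA, X:4325054-4325083: caaaaaggcccCACTGTACttgagataaaa
Raf, X:2297785-2297814: cgttcggtgttCACTGTACctgctgccagt
bbx, X:21366627-21366656: caaccgttgttCACTGTACcgagtgccgat
Hsp83, 3L:3194329-3194358: attttgaccacCACTGTACttgtatatgcg
MCU, 3L:6553159-6553188: gattggagcttCACTGTACcaaaaaggctc

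Since the word was chosen on these same summits, its shares there are a description with no test. The regions had pooled signals of 1575 (CHES-1-like), 1503 (norpA), 1005 (Raf), 991 (bbx), 626.1 (Hsp83, a chaperone gene) and 580.4 (MCU, the mitochondrial calcium uniporter gene). The word began between 93 bp before and 77 bp after the summit.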

How the data were processed

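The authors deposited 4 peak lists on dm6. Per the file descriptions, each replicate list and the pooled list was called together with a control, and the IDR list was made from them. For the aligner, the peak caller and the IDR threshold no name or value is given in the sources. The deposited signal is the caller's value within its list and is not scaled between lists. The deposited −log10 q-value is capped and was not used. The 5744 IDR peaks are the strongest 5744 pooled rows. Peaks sharing at least 1 bp were merged into 5206 regions, which kept the strongest summit. Summits beyond the peak end (4) were set to its last base. Genes came from Ensembl release 115 (13945 protein-coding genes on 6 arms) and sequence from RefSeq dm6. Classes, merging and word search were tested on simulated data. Shares have Wilson and densities exact Poisson intervals, without p-values. Python 3.11.15, numpy 2.4.6 and scipy 1.17.1 were used. Members and gene lists were chosen with earlier results of these data known. Genes were named as the 20 strongest, the 2 strongest hosts per list, hosts with at least 3 regions, regions missing from 1 replicate and those at the limits. Other contigs were left out.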

Additional observations from a re-analysis of the deposited data

How the results depend on the processing

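Of 55 alternative values, 42 stayed inside the interval of the reported value or, for the count, within 1.5 times. Leaving out replicate 1 or replicate 3, by taking the 5744 strongest peaks of the other's list, gave 827 to 864 regions, 44.8 to 46.8 per Mb, a first-intron share of 74.6 to 76.0%, the CACGTG or CACGCG word at 10.1 to 12.1%, GAGAGAG at 4.51 to 6.41%, a promoter region at 73.3 to 76.0% of hosts and a non-coding TSS near 5.21 to 5.32%. With the stronger 2872 peaks, density was 22.1 per Mb, since fewer regions entered, and support by both replicates was 99.0%, as it follows signal. The promoter share of hosts was 54.5%. In that setting the promoter regions also came only from the stronger 2872 peaks, so this share is not comparable with the 75.6% above. With an inner limit of 2 kb the first-intron share was 67.3% and the density 38.0 per Mb. Support was 36.2% with 2872 strongest peaks per replicate and 99.2% with the whole lists. In windows of 50 and 250 bp the CACGTG or CACGCG share was 7.20 and 22.4%, and the GAGAGAG share 1.77 and 16.4%. The first intron of the longest coding transcript gave 48.3%, and promoter regions within 500 bp gave 69.1% of hosts. No paired analysis was possible because there was 1 group. With 2 replicates of unknown depth, variation between embryo collections is known only from these pairs of values, and the intervals cover counting error only.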
